A study of Caenorhabditis elegans with 20 samples.

Results

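The genes described here are tph-1 and mod-5 of the nematode Caenorhabditis elegans, the pair that makes serotonin and takes it back up. They were chosen by gene name, and they are 2 of the 18917 genes listed in any of the 5 deposited tables. tph-1 (WBGene00006600, sequence name ZK1290.2) encodes tryptophan hydroxylase, and mod-5 (WBGene00003387, sequence name Y54E10BR.7) encodes the serotonin reuptake transporter. The choice used no measured value, but it was made with earlier results of these data known.

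Serotonin is made from tryptophan. Tryptophan hydroxylase, the rate-limiting enzyme, adds a hydroxyl group with the help of tetrahydrobiopterin, an aromatic amino acid decarboxylase (bas-1) completes the molecule, and a vesicular monoamine transporter (cat-1) packs it into synaptic vesicles. After release, the transporter MOD-5 clears it from outside the cell. In C. elegans tph-1 marks the few neurons that make serotonin, among them the pharyngeal NSM, the sensory ADF and the egg-laying HSN neurons, while mod-5 is also used by neurons that take serotonin up without making it. Serotonin is known there for its part in feeding, egg laying and the slowing of animals on food.

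The assay was translating ribosome affinity purification (TRAP). Tagged ribosomes of a chosen cell type are immunoprecipitated out of a lysate of whole worms, and the RNA bound to them is sequenced. Each purification had its own strain, JAC433 for serotonin neurons, JAC126 for neurons in general (called neuronal here), JAC379 for dopamine neurons, JAC382 for intestine and JAC127 for muscle. Each gave 2 TRAP libraries and 2 libraries of the RNA of the same whole-animal lysates (input), 20 in all. All were L4 larvae grown at 22 °C on OP50-1 bacteria and collected 46 to 48 h after release from L1, with no treatment named. A wild-type strain or a mock purification was not analysed here, and each TRAP library is set against the input of its own strain. The promoter that drives the ribosomal tag in each strain and the number of transgenic lines are not given in the sources used here. Levels are in RPKM (reads scaled to transcript length and to library size), and each deposited table lists, in each replicate, only genes with at least 1 RPKM in TRAP or in input.

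Depth and markers frame these values. The libraries held 4.46 to 239.7 M reads (M for mega) in listed genes. The serotonin TRAP libraries held 28.9 and 165.6 M, against 51.9 and 87.7 M in their inputs, and the neuronal TRAP libraries 136.0 and 52.9 M, against 4.46 and 31.5 M in theirs. The 10 pan-neuronal markers (such as rab-3) summed to 1183 and 726.8 RPKM in serotonin TRAP, against 641 and 363.2 RPKM in input, with 7 of 10 and 6 of 9 listed markers higher in TRAP. In the neuronal purification they summed to 14120 and 5136 RPKM in TRAP and to 444.8 and 101.7 RPKM in input, with 10 of 10 higher in both replicates. The serotonin neuron markers other than the members (cat-1, bas-1 and cat-4) summed to 151.6 and 76.8 RPKM in serotonin TRAP. Their sums in input were higher, at 329.2 and 167.6 RPKM, with 2 of 3 and 1 of 3 markers higher in TRAP. cat-4 made up most of these sums in both fractions, so they mainly reflect that gene. cat-1 was higher in TRAP in both replicates, bas-1 in replicate 1 only and cat-4 in neither. Markers of dopamine neurons (cat-2 and dat-1) summed to 0.434 RPKM in serotonin TRAP replicate 1, against 2.86 RPKM in input. In serotonin replicate 2 only dat-1 was listed, at 1.17 RPKM in TRAP, against 1.66 RPKM in input. In bulk samples like these, fewer cells of a type and less RNA per cell cannot be told apart.

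tph-1 was listed in 2 of the 5 purifications, serotonin and neuronal, in both replicates of each. It was not listed in either replicate of the dopamine, intestine and muscle tables, where it therefore stayed under 1 RPKM in TRAP and in input alike. mod-5 was listed in both replicates of the serotonin purification, in dopamine replicate 1 and in intestine replicate 2, and in neither replicate of the neuronal and muscle tables. Each gene thus had values in 4 of the 10 pairs of libraries, and only the serotonin purification listed both genes.

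tph-1 was much higher in ribosome-bound RNA of the serotonin purification than in the whole animals it came from. Its level was 67.2 and 7.58 RPKM in its TRAP libraries, against 3.47 and 0.528 RPKM in input. Both TRAP libraries were above both inputs, so the fractions did not overlap. In replicate 2, with its input under 1 RPKM, TRAP had to be the higher for the gene to be listed. The TRAP values rested on 3515 and 2274 reads, and the input values on 326 and 84 reads. TRAP over input was 19.4-fold in replicate 1 (95% exact counting interval 17.3 to 21.8) and 14.3-fold in replicate 2 (11.5 to 18.1). The intervals cover counting error only. The median gene listed in the same replicates had ratios of 0.680 and 0.742, so tph-1 stood well above it in each.

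**Figure D1:**
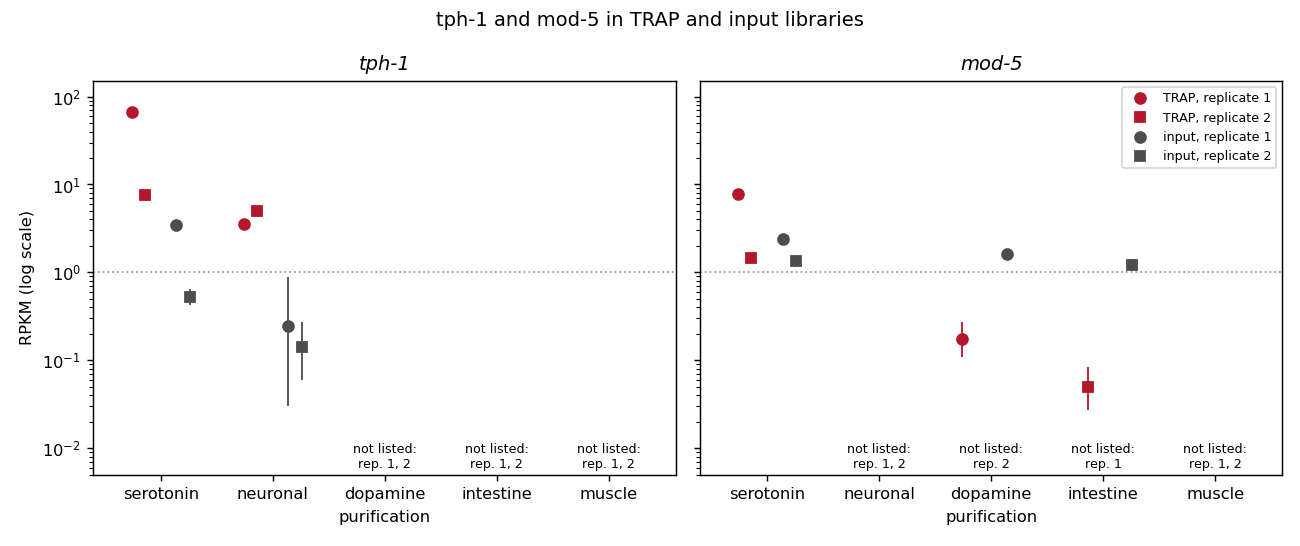
Levels of tph-1 and mod-5 in RPKM on a log scale, by purification, with TRAP libraries (red) left of input libraries (grey) and replicates 1 and 2 as circles and squares. Bars are 95% exact counting intervals, the dotted line marks the 1 RPKM needed for listing, and text marks replicates that do not list the gene. tph-1 lies above its inputs in serotonin and neuronal TRAP, and mod-5 lies below its input in the 1 dopamine and 1 intestine replicate that list it.

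The levels of tph-1 differed far more between the replicates than the ratio of TRAP to input did. TRAP replicate 1 was 8.87 times TRAP replicate 2, and input replicate 1 was 6.56 times input replicate 2. The mean was therefore 37.4 ± 42.2 RPKM in TRAP and 1.997 ± 2.077 RPKM in input (SD, n = 2 each), with an SD above the mean in both fractions. On the scale of log2(RPKM + 1), on which a fold change understates the change of low genes, the difference between TRAP replicates 1 and 2 was 2.99, at the 99.07th percentile of tested genes. The median of all tested genes was 0.00 between the same libraries. Among the inputs tph-1 differed by 1.55, at the 93.5th percentile.

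Some of the epidermis and intestine markers also differed between the serotonin replicates in both fractions. The adult cuticle collagen col-19 was higher in replicate 1 by 7.49 in TRAP and by 7.22 in input, and vit-6, which encodes a yolk protein, was higher by 6.29 in TRAP and 5.13 in input, both as log2 of RPKM + 1. The cuticle collagen dpy-7 was lower in replicate 1 (-4.08 in TRAP and -2.78 in input), as was the metallothionein mtl-2 (-3.84 in TRAP and -3.81 in input). Of the epidermis markers, col-19 alone was higher in replicate 1 and the other 4 were lower in both fractions. Of the intestine markers, vit-6 and mtl-2 went opposite ways, cpr-1 differed by -1.07 in TRAP and -0.82 in input, and the other 4 (ges-1, spp-1, act-5 and asp-1) lay between -0.09 and 0.12 in TRAP and between -0.61 and 0.92 in input. The summed level of the 5 epidermis markers was 3140 and 1157 RPKM in serotonin TRAP, against 667 and 1190 RPKM in input. The part of these differences in the levels of tph-1 was not tested.

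Across all genes of the serotonin table, the fitted log2 change of tph-1 was 3.21 ± 1.12 (SE, 95% interval 0.33 to 6.09), and 45 of 14587 tested genes had a larger one, which put tph-1 at the 99.69th percentile. The median change of all genes was -0.44. With limma-trend, which treats the 2 TRAP and 2 input libraries as unpaired, its adjusted p was 0.157, so it did not pass the threshold of 0.05. The same fit called 0 genes higher and 0 lower (percent called 0), with 4034 genes at an unadjusted p under 0.05, and edgeR's quasi-likelihood test on the recovered reads also called 0, with 3344 at an unadjusted p under 0.05. With the replicate as a block, which pairs each TRAP library with the input of the same biological replicate, tph-1 rose with an adjusted p of 0.00449 and an SE of 0.41. That fit called 9.77% of genes higher and 29% lower, or 2584 genes higher and 2963 lower after a median-ratio rescaling of libraries, where 1425 and 4236 were called without it, that is 17.7% higher and 20.3% lower with it. DESeq2 on the recovered reads, unpaired, called tph-1 too (log2 change 4.67, adjusted p = 0.00124), among 8.79% of genes called higher. Replicate 2 listed tph-1 through TRAP alone, so its direction there was fixed by the listing, and all these p rest partly on that replicate.

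**Figure D2:**
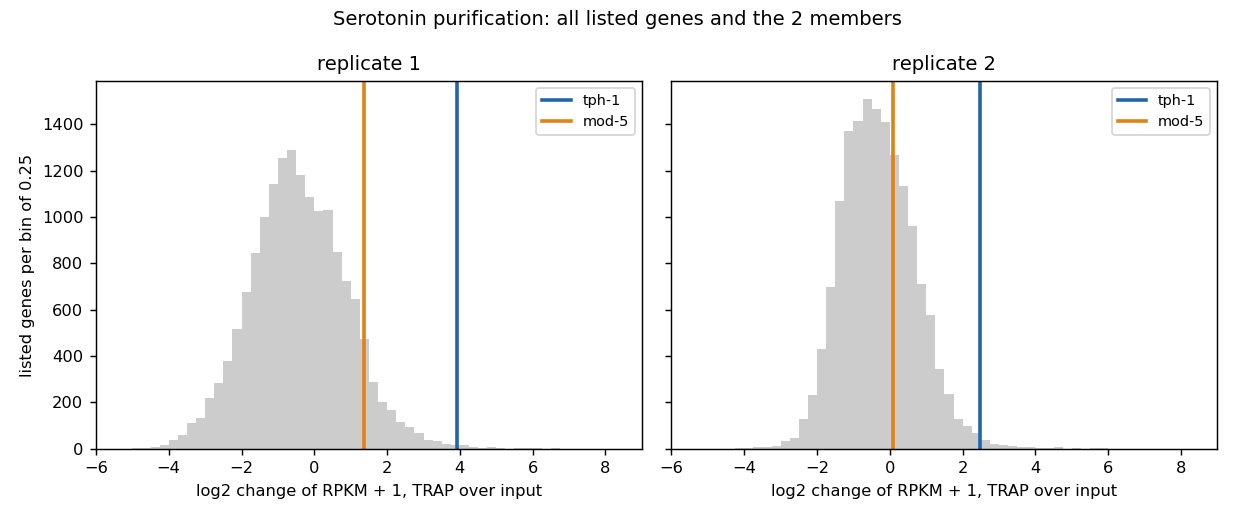
Number of listed genes by log2 change of RPKM + 1 (TRAP over input, bins of 0.25) in replicates 1 and 2 of the serotonin purification, with tph-1 in blue and mod-5 in orange. tph-1 lies at the far right in both replicates (3.93 and 2.49), and mod-5 lies right of the bulk in replicate 1 only.

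Taken replicate by replicate, tph-1 had a log2 change of 3.93 in serotonin replicate 1, where 57 of 16099 listed genes had a larger one, and 2.49 in replicate 2, where 129 of 15507 did. By level, it was in TRAP at the 89.2nd percentile of listed genes in replicate 1 and at the 42.3rd in replicate 2, against the 22.8th and the 2.48th in input. The input of replicate 2 was under 1 RPKM, so that replicate listed tph-1 through its TRAP value.

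In the neuronal purification tph-1 was listed in TRAP at lower levels. It had 3.57 and 4.96 RPKM in neuronal TRAP, against 0.248 and 0.140 RPKM in input of that strain. Both inputs were under 1 RPKM, so tph-1 entered this table through its TRAP values, and a higher level in TRAP was fixed by the listing. The size of its change is therefore a description, and the p below are no evidence of its direction. The TRAP values rested on 881 and 476 reads, but the inputs held only 2 and 8 reads of tph-1, which leaves the ratios wide, at 14.4-fold (3.98 to 119.4) and 35.4-fold (17.8 to 82.4). The fitted log2 change was 2.13 ± 0.70 (SE, n = 2 against 2), with an adjusted p of 0.0178 by limma and 0.0328 with the replicate block. The fits called 16.8% and 15.7% of 13435 genes higher, with 0.588% lower without the block, and the median gene changed by 0.81. tph-1 stood at the 77.2nd percentile of these changes, with 3061 genes above it. The adjusted p did not pass without neuronal input replicate 1 (adjusted p = 0.0517) or replicate 2 (adjusted p = 0.111), nor with edgeR (adjusted p = 0.078).

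The 2 serotonin TRAP libraries lay above the 2 neuronal TRAP libraries in tph-1, at 67.2 and 7.58 RPKM against 3.57 and 4.96 RPKM, though the tables were made separately. The change in serotonin minus the change in neuronal was 1.08 ± 1.30 on the log2(RPKM + 1) scale, with a 95% interval of -1.78 to 3.94 and an adjusted p of 0.636 by limma (0.437 with the replicate block). The data thus did not show a difference in TRAP over input between these purifications, and the interval is too wide to call them alike. Without serotonin TRAP replicate 1 the difference turned to -0.42. The median gene had -1.30 in the same comparison. The neuronal listing of tph-1 through TRAP bears on this difference too.

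mod-5 did not change detectably in the serotonin purification. Its level was 7.79 and 1.46 RPKM in its TRAP libraries, against 2.41 and 1.34 RPKM in input. TRAP replicate 1 was above both inputs, while TRAP replicate 2 lay between them, so the fractions overlapped. The reads behind these values were 451 and 486 in TRAP and 251 and 235 in input. TRAP over input was 3.23-fold in replicate 1 (2.76 to 3.79) and 1.10-fold in replicate 2 (0.936 to 1.29), the last with an interval that includes 1. The mean was 4.63 ± 4.48 RPKM in TRAP and 1.87 ± 0.76 RPKM in input (SD, n = 2 each).

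The fitted log2 change of mod-5 was 0.72 ± 0.70 (SE, 95% interval -1.08 to 2.53), with an adjusted p of 0.521 by limma and 0.205 with the replicate block. It stood at the 84.5th percentile of the 14587 genes, with 2266 above it. Without TRAP replicate 1 the change was -0.20, so its sign rested on that library. As with tph-1, TRAP replicate 1 was above TRAP replicate 2, by 1.84 on the log2 scale (96.4th percentile), while the inputs differed by 0.55.

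In the purifications of other cells, mod-5 was seen mainly in the input. In dopamine replicate 1 it had 0.177 RPKM in TRAP (20 reads), against 1.60 RPKM in input (770 reads), a ratio of 0.110 (0.0670 to 0.172). In intestine replicate 2 it had 0.0499 RPKM in TRAP (14 reads), against 1.23 RPKM in input (267 reads), a ratio of 0.0407 (0.0220 to 0.0696). These ratios were at the 4.23rd and 2.79th percentiles of the genes listed there, whose medians were 0.536 and 0.432. Only the input values were above 1 RPKM in these replicates, so mod-5 had to be lower in TRAP to be listed, and with 1 replicate each no test was made.

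**Figure D3:**
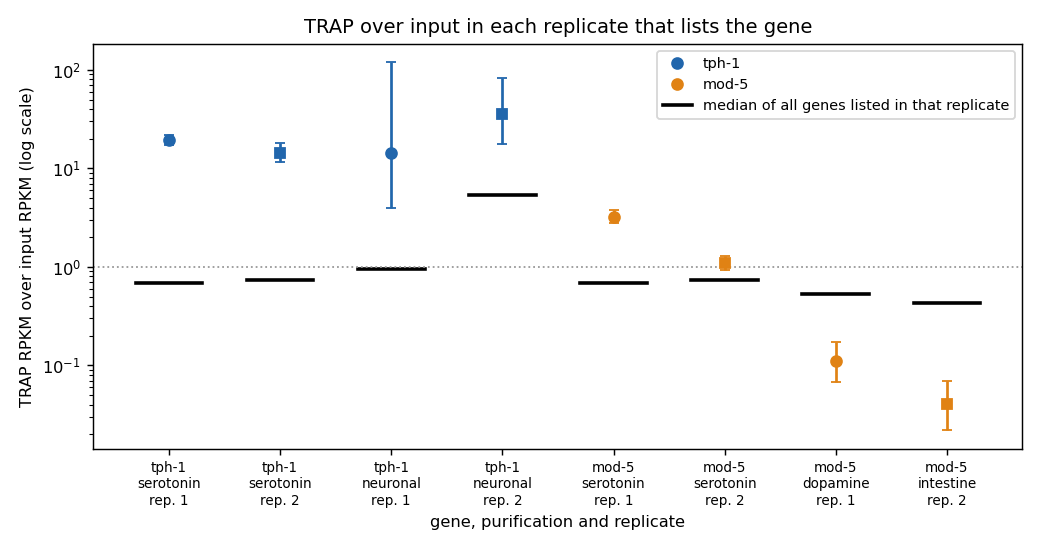
TRAP RPKM over input RPKM on a log scale in each replicate that lists the gene, with 95% counting intervals. tph-1 is blue, mod-5 is orange, circles are replicate 1, squares are replicate 2 and black bars are the median of all genes listed in that replicate. Ratios of tph-1 run from 14.3 to 35.4, and those of mod-5 are 3.23 and 1.10 in serotonin, 0.110 in dopamine and 0.0407 in intestine.

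Ordered by level, tph-1 in TRAP ran from serotonin through neuronal to the purifications that did not list it. In input, serotonin replicate 1 (3.47 RPKM) was the only library above 1 RPKM, and replicate 2 (0.528 RPKM) cannot be separated from strains that did not list the gene. For mod-5, serotonin TRAP was highest (7.79 and 1.46 RPKM), and the inputs that list it had 1.23 to 2.41 RPKM, so serotonin TRAP replicate 2 lay within their range. Per length, tph-1 was 8.62 and 5.18 times as abundant as mod-5 in serotonin TRAP, against 1.44 and 0.396 times in input. Its share relative to mod-5 was thus larger in both TRAP libraries than in either input. Replicate 2 listed tph-1 through TRAP alone, and reads of genes that overlap either member cannot be told apart from its own. Both limits bear on this comparison.

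The authors' deposited lists of enriched genes hold tph-1 but not mod-5. tph-1 is in the authors' deposited table of serotonergic genes, which asks for at least 2-fold enrichment in both replicates and no similar detection in the dopaminergic purification, with an average enrichment of 19.4 and rank 79 of 756. It is also in the authors' deposited table of neuronal genes, at least 5-fold, with 9.71 and rank 2043 of 2370. None of the 5 lists holds mod-5. In the authors' deposited table the ratio of TRAP over input of mod-5 was 4.10 and 1.10 in serotonin replicates 1 and 2, so replicate 2 was under the 2-fold minimum. The authors' deposited ratio of tph-1 was 24.5 and 14.3 in serotonin and 10.8 and 8.67 in neuronal, a quotient of scaled counts and not of RPKM.

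The other genes of serotonin synthesis and packaging did not move as one group with tph-1. Of 7 such genes, 1 rose and 5 fell with the replicate block in serotonin, where 9.77% of genes were called higher and 29% lower. 0 passed without the block. cat-1, the vesicular monoamine transporter, had 25.1 and 9.23 RPKM in serotonin TRAP, against 2.03 and 1.12 RPKM in input. Its change was 2.69 ± 0.59, with an adjusted p of 0.115 by limma and 0.00449 with the replicate block. Both TRAP libraries were above both inputs, as for tph-1. cat-1 is shared by all monoamine neurons. It had a change of 1.71 in dopamine, where both inputs were under 1 RPKM and its direction was fixed by the listing. In neuronal its change was 3.04 (adjusted p = 0.0448 by limma). At least 1 neuronal input of cat-1 was under 1 RPKM too, so its direction there was fixed at least in part by the listing.

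bas-1, the decarboxylase of serotonin and dopamine synthesis, did not follow. It had 35.0 and 18.1 RPKM in serotonin TRAP, against 23.5 and 36.9 RPKM in input, so the replicates disagreed in direction, and its change was -0.21 (adjusted p = 0.697 by limma with the block). The 5 genes that fell with the block serve the tetrahydrobiopterin cofactor. They are cat-4 (GTP cyclohydrolase, -1.55), ptps-1 (pyruvoyl tetrahydropterin synthase, -2.06), pcbd-1 (carbinolamine dehydratase, -1.63), qdpr-1 (dihydropteridine reductase, -2.23) and gfrp-1 (GTP cyclohydrolase feedback regulator, -1.86). Their adjusted p lay between 0.00479 and 0.00978 by limma with the block, and all 5 also fell after rescaling of libraries, by 1.15 to 1.83. cat-4 had 91.5 and 49.5 RPKM in serotonin TRAP, against 303.7 and 129.6 RPKM in input, many times the input level of tph-1 per length. The same 5 genes fell in dopamine with the block, which called 8.44% of genes higher and 30.5% lower there, and cat-4 changed there by -2.64 (adjusted p = 2.04e-06 by limma with the block), as did bas-1 by -1.30 (adjusted p = 0.0336), which was not called after rescaling (adjusted p = 0.205), with 18.6% of genes higher and 17.3% lower. qdpr-1 was not called in dopamine after rescaling either (adjusted p = 0.0682).

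**Figure D4:**
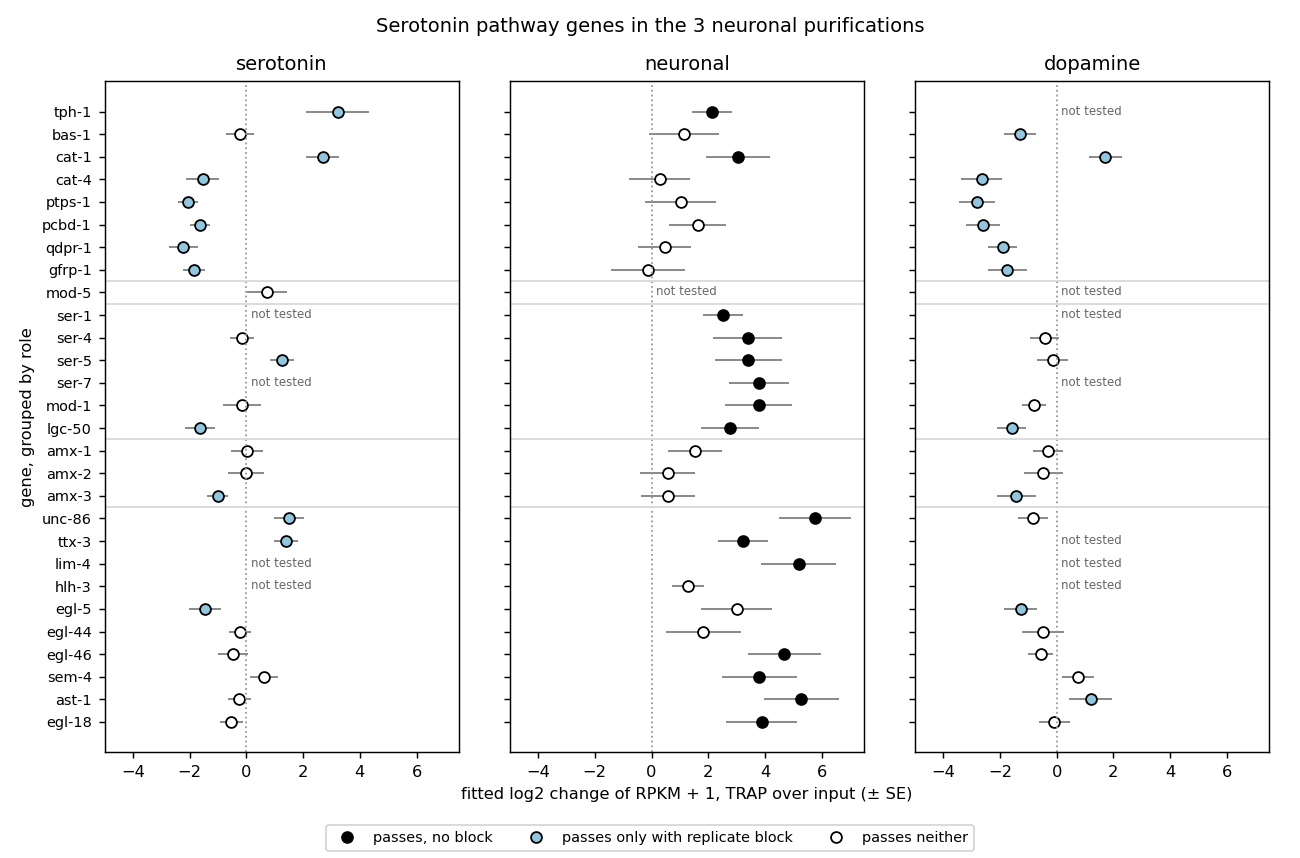
Fitted log2 change of RPKM + 1, TRAP over input (± SE without the block), of the 28 serotonin pathway genes in the serotonin, neuronal and dopamine purifications, grouped by role from synthesis at the top through uptake, receptors and breakdown to transcription factors. Black points passed without the replicate block, light blue ones only with it and white ones with neither. In serotonin, tph-1 and cat-1 lie farthest right, while in neuronal the receptors and most transcription factors lie right of tph-1.

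Of 8 tested transcription factors known to act in serotonin neurons, 2 were called higher and 1 lower in the serotonin purification with the block, where 9.77% of all genes were called higher and 29% lower. unc-86, a POU homeodomain factor of NSM and HSN, had 15.1 and 5.86 RPKM in serotonin TRAP, against 2.78 and 2.62 RPKM in input. Its change was 1.51 ± 0.54, with an adjusted p of 0.16 by limma and 0.02 with the block. ttx-3, a LIM homeodomain factor of NSM, had 4.09 and 2.26 RPKM in its TRAP libraries, against 0.700 and 0.398 RPKM in input, a change of 1.40 ± 0.42 (adjusted p = 0.13 by limma, 0.0249 with the block). Each TRAP library of unc-86 was above each of its inputs. Both inputs of ttx-3 were under 1 RPKM, so it was listed through TRAP and could only be higher there. The Hox gene egl-5, which acts in HSN, had a change of -1.46 (adjusted p = 0.0441 by limma with the block, 0.0518 after rescaling). Of the other 2 factors of the list, hlh-3, a factor of HSN, was listed in neither serotonin replicate.

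Among the receptors, 1 of 4 tested rose and 1 fell with the block in serotonin, against 9.77% and 29% of all genes. ser-5, a G protein-coupled serotonin receptor, had 7.81 and 4.95 RPKM in serotonin TRAP, against 2.44 and 1.68 RPKM in input, and a change of 1.25 ± 0.42 (adjusted p = 0.15 by limma, 0.0245 with the block). lgc-50, a serotonin-gated channel, had a change of -1.62 (adjusted p = 0.0179 by limma with the block). mod-1, another serotonin-gated channel, had 5.37 and 0.804 RPKM in its TRAP libraries, against 3.08 and 2.51 RPKM in input. Like mod-5, mod-1 was above both its inputs in TRAP replicate 1. In TRAP replicate 2 mod-1 was below both its inputs, while mod-5 lay between its own. Of the 3 monoamine oxidase genes, amx-3 had a change of -1.02 (adjusted p = 0.0399 by limma with the block, 0.138 after rescaling). In all, 22 of the 26 other pathway genes were tested in serotonin, with a median change of -0.23 (all genes -0.44), 4 higher and 8 lower with the block. The share of lower calls was thus near the 29% of all genes. DESeq2, unpaired, called 4 higher and 4 lower, where it called 1282 of all 14587 genes higher and 915 lower. The authors' deposited table of serotonergic genes holds 3 of these 26, with enrichments of 6.45 for ttx-3, 4.56 for unc-86 and 3.50 for ser-5, against 19.4 for tph-1.

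In the neuronal purification, 14 of the 26 pathway genes were called higher and 0 lower by limma, where 16.8% of all genes were called higher. For 8 of the 14 both inputs were under 1 RPKM, and for all 14 at least 1 was, so the listing through TRAP favoured this direction and the count supports nothing by itself. The median change of the 26 was 2.89, and that of all genes 0.81. All 6 receptors were among the 14, with changes of 2.51 (ser-1) to 3.80 (ser-7), with 3.38 for ser-4, 3.41 for ser-5, 3.78 for mod-1 and 2.77 for lgc-50. So were 7 of 10 transcription factors, with 5.76 for unc-86 (adjusted p = 0.000325), 5.28 for ast-1, 5.20 for lim-4, 4.69 for egl-46, 3.88 for egl-18, 3.80 for sem-4 and 3.24 for ttx-3. unc-86 had 109.3 and 86.2 RPKM in neuronal TRAP, against 1.75 and 0.198 RPKM in input. The change of tph-1 there, 2.13, was below that of each of these 13 genes. None of the 3 amx genes and 1 of the 7 synthesis genes (cat-1) passed, and edgeR called 0 of the 26 and 0 of all genes, with 3965 genes at an unadjusted p under 0.05. DESeq2 called 15 of the 26 higher, where it called 2514 of all 13435 genes higher.

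The difference between the purifications was itself tested for these genes. The change in serotonin minus that in neuronal was below 0 for all 22 tested pathway genes other than tph-1, and limma called 7 of them lower and 0 higher, where 8.69% of genes were called lower and 0.653% higher. The 7 were ast-1 (-5.53), egl-46 (-5.16), egl-5 (-4.47), egl-18 (-4.42), lgc-50 (-4.39), unc-86 (-4.25) and pcbd-1 (-3.25). The median of all 12563 genes tested was -1.30, so most genes lay below 0 in this comparison. tph-1 was the only tested pathway gene with a value above 0 (1.08), which did not pass, and 902 genes lay above it. Without serotonin TRAP replicate 1, the value of tph-1 was -0.42. After rescaling of libraries, 5 of the 22 were called lower (6.11% of all genes) and 1 of the 22 was above 0. The median of all genes was then -0.12. The neuronal listing through TRAP bears on these differences as well.

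In dopamine, where neither member could be tested, 21 pathway genes were tested, with a median change of -0.80 (all genes -0.60). With the block 2 were called higher (cat-1, and ast-1 with 1.20) and 9 lower, where 8.44% of all genes were called higher and 30.5% lower. The direction of cat-1 there was fixed by its listing through TRAP. In intestine 20 were tested, and without the block lgc-50 alone fell (by 1.60, adjusted p = 0.0229 by limma), where 5.34% of genes were called lower and 0.406% higher. With the block 4 were called lower and 0 higher, where 2935 of 14051 genes were called lower and 317 higher.

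Of the relatives of the members, 13 of 15 were tested in serotonin, and 0 rose and 5 fell with the block, which called 9.77% of all genes higher and 29% lower. The aromatic amino acid hydroxylases are tph-1, cat-2 (tyrosine hydroxylase, which makes dopamine) and pah-1 (phenylalanine hydroxylase). cat-2 was listed in 1 serotonin replicate, with 0.187 RPKM in TRAP (9 reads), against 1.10 RPKM in input (95 reads). In the dopamine purification, where tph-1 was not listed, cat-2 had 30.5 and 4.57 RPKM in its TRAP libraries, against 0.503 and 0.486 RPKM in input, and a change of 3.15. In neuronal it had 30.8 and 33.8 RPKM in its TRAP libraries, against 0.673 and 0.0381 RPKM in input, and a change of 4.66. All these inputs of cat-2 were under 1 RPKM, so it was listed through TRAP and its direction was fixed. pah-1 changed by -1.33 in serotonin (adjusted p = 0.0158 by limma with the block).

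Of the 13 other transporters of the SLC6 family, to which MOD-5 belongs, 12 were tested in serotonin, where 0 rose and 4 fell with the block, a share near the 29% of all genes called lower. They were snf-11 (the GABA transporter, -1.90), snf-6 (the muscle acetylcholine transporter, -1.77), snf-3 (the betaine transporter, -1.48) and snf-10 (-1.21), and snf-10 was not called after rescaling (adjusted p = 0.0801). snf-5 was then called higher, with a change of 1.18 (adjusted p = 0.0123). dat-1, the dopamine transporter, had 0.246 and 1.17 RPKM in serotonin TRAP, against 1.76 and 1.66 RPKM in input. In dopamine it had 41.0 and 5.43 RPKM in its TRAP libraries, against 1.76 and 0.985 RPKM in input, a change of 2.81 (adjusted p = 0.109 by limma, 7.04e-06 with the block). dat-1 was thus higher in TRAP than in input in both dopamine replicates, while for mod-5 this held clearly in 1 serotonin replicate. In dopamine replicate 2 the input of dat-1 was under 1 RPKM, so its direction there was fixed by the listing. The p of dat-1 rest partly on that replicate. In dopamine, 4 of 13 transporters rose with the block (dat-1, snf-5, snf-7 and snf-8) and snf-11 fell, against 8.44% and 30.5% of all genes. The change of dat-1 in serotonin minus that in dopamine was -3.53 (adjusted p = 0.0319 by limma with the block, which called 0.0287% of genes lower). It was not called without the block (adjusted p = 1) or with the block and rescaling (adjusted p = 0.0796). That test could not be made for tph-1 or mod-5, which were not listed in both dopamine replicates.

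The genes with the pattern most like tph-1 over the 20 libraries, by Pearson correlation of log2(RPKM + 1) with unlisted values set to 0, were nhr-239 (0.956), K02F6.8 (0.948), C36C9.5 (0.934), elc-2 (0.92) and C04E6.8 (0.92), among 13410 genes that reach 10 RPKM in some library. The libraries share strains and preparations, so these are descriptions. nhr-239, a nuclear hormone receptor gene, had 16.9 and 5.32 RPKM in serotonin TRAP, against 0.402 and 0.0699 RPKM in input. elc-2, an elongin C relative, had 100.7 and 82.2 RPKM in serotonin TRAP, against 2.12 and 1.53 RPKM in input, and replicate 1 was not far above replicate 2 there. C04E6.8 reached 1538 and 435.7 RPKM in serotonin TRAP, against 21.3 and 7.51 RPKM in input. Since the 5 were chosen for this pattern, and the inputs of nhr-239, K02F6.8 and C36C9.5 were under 1 RPKM, their higher level in serotonin TRAP follows from the choice and the listing. mod-5 correlated with tph-1 at 0.719.

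Closest in pattern to mod-5 were fbxa-224 (0.804), the piRNA gene 21ur-5206 (0.803), F56A8.5 (0.778), Y60A3A.21 (0.773) and K01A12.4 (0.771). fbxa-224, an F-box gene, is also the nearest protein-coding neighbour of tph-1 on one side in the RefSeq annotation (WBcel235). It had 150.9 and 34.2 RPKM in serotonin TRAP, against 34.8 and 13.8 RPKM in input. The inputs of the other strains that list it had 1.38 to 5.48 RPKM, so both serotonin inputs were above them, and its highest TRAP value elsewhere was 21.4 RPKM in dopamine replicate 2. ZK1290.14, the neighbour on the other side, had 19.6 and 13.0 RPKM in serotonin TRAP, against 48.4 and 15.3 RPKM in input, and was not higher in TRAP. The neighbours were looked up after the values were known.

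In the same annotation tph-1 overlaps 4 genes and mod-5 overlaps 1. Whether reads were counted by strand is not stated, so reads of overlapping genes cannot be told apart. The only overlapping gene of tph-1 listed in serotonin, ZK1290.10, had 1.73 and 2.48 RPKM in its TRAP libraries, against 2.15 and 2.86 RPKM in input, in each replicate slightly lower in TRAP. Y54E10BR.2, which overlaps mod-5, had 17.6 and 10.1 RPKM in serotonin TRAP, against 132.6 and 43.8 RPKM in input. It was lower in TRAP in both replicates, and thus ran opposite to mod-5 in replicate 1.

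Markers of other tissues in the serotonin TRAP libraries stood as follows. The 7 body wall muscle markers summed to 7425 and 9498 RPKM in its TRAP libraries, against 14860 and 13270 RPKM in input, with 3 and 4 of 7 higher in TRAP. Of these, the myosin heavy chain genes myo-3 and unc-54 were far higher in TRAP. myo-3 had 310.3 and 476.9 RPKM in serotonin TRAP, against 3.83 and 6.81 RPKM in input, with a change of 5.97 (adjusted p = 0.115 by limma, 0.000357 with the block), above that of tph-1. unc-54 had 1952 and 1756 RPKM in serotonin TRAP, against 64.9 and 33.8 RPKM in input. The 7 intestine markers summed to 6156 and 7615 RPKM in its TRAP libraries, against 3327 and 4950 RPKM in input, with 4 of 7 higher in each replicate. The part of these markers in the values of tph-1 and mod-5 was not tested.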

How the data were processed

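RNA-seq of 20 libraries (5 strains, TRAP and input, 2 biological replicates per the file headers) was used. Per the submitters' processing notes, STAR served as the aligner and HTSeq as the counter. Versions, genome build and counting settings are not given in the sources used here. The authors' deposited RPKM was the unit of every comparison. In each replicate the deposited count columns hold, as inferred from their values, whole reads plus 1 in 1 library and a scaled signal (reads plus 1 times a factor) in the other. The authors' deposited ratio is the quotient of those columns. Undoing the factor gave whole reads for 99.88 to 100% of values, and RPKM was proportional to them within 2% for 100% of genes. Columns not used: 0.

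Because no table holds raw counts throughout, limma-trend (limma 3.58.1, R 4.3.3) was fitted on log2(RPKM + 1), in place of the planned edgeR test on counts, per purification, over genes listed in both replicates with mean RPKM of at least 1, with Benjamini-Hochberg adjustment at 0.05, two-sided. The limma and edgeR fits without the block were tested on simulated data, with independent noise of the same spread for all genes. That test did not cover the replicate block or DESeq2. The p reflect only how these libraries vary, which may be partly technical. In fits with infinite prior degrees of freedom a gene's own replicate spread does not enter its p. These include the main and blocked fits of neuronal and muscle. With the block and no rescaling, they also include intestine, dopamine and the serotonin minus neuronal change. The main fit has no replicate block. TRAP and input of a replicate are paired per the file headers, and their deviations from group means correlated at 0.679, 0.451, 0.516, 0.603 and 0.608 in serotonin, neuronal, dopamine, intestine and muscle. Alternatives were the block, a median-ratio (RLE) rescaling, both together, pseudocounts of 0.1 and 5, no filter, genes listed in either replicate, edgeR 4.0.16 and DESeq2 1.42.0 on recovered reads, and leaving out each library.

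Named were the members, pathway and relative genes passing in the serotonin, dopamine or neuronal fits, and the 5 genes most correlated with each member. A few others (bas-1, mod-1, tissue markers, neighbours) were named after their values were seen. Members and lists were chosen with earlier results of these data known. Counting intervals are 95%, exact Poisson for levels and exact binomial for ratios. No sequence or coordinate is printed, as the build of the files is not named.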

Additional observations from a re-analysis of the deposited data

Results flagged for a closer look

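The ratio of TRAP over input of mod-5 lay above 1 in both serotonin replicates (3.23 and 1.10), against 0.110 in dopamine replicate 1, the only dopamine replicate that lists the gene. In the same way it was 3.23 and 1.10 in serotonin, against 0.0407 in intestine replicate 2. mod-5 is listed in those 2 other replicates only through its input value, so ratios below 1 were fixed there by the listing. The counting interval of serotonin replicate 2 includes 1. These values therefore do not show opposite directions, and the difference was not tested.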

How the results depend on the processing

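The call of tph-1 in serotonin, where the direction in replicate 2 was fixed by its listing through TRAP, depended on the fit. Its change was 3.21 (not called) without the replicate block, 3.21 with the replicate block (called, adjusted p = 0.00449), 3.51 with the replicate block and RLE rescaling (called, adjusted p = 0.000101) and 4.67 with DESeq2 (called, adjusted p = 0.00124). Leaving out each library gave 1.72 to 4.71, none called, and every alternative kept the direction. mod-5 was called under no alternative (0.41 to 1.72), and leaving out each library gave -0.20 to 1.64, with the reversal without serotonin TRAP replicate 1. For tph-1 in neuronal, whose direction was fixed by its listing through TRAP, the threshold was missed with RLE rescaling (1.54, adjusted p = 0.0657), with a pseudocount of 5 (0.83, adjusted p = 0.0695), with genes listed in either replicate (2.13, adjusted p = 0.194) and with edgeR (3.25, adjusted p = 0.078). Leaving out each library gave 1.94 to 2.32 (2.20 without input replicate 1 and 2.07 without input replicate 2, neither called). The serotonin minus neuronal change of tph-1 was 0.03 to 1.52 over the alternatives and -0.42 to 2.58 leaving out each library, reversed without serotonin TRAP replicate 1. Without rescaling, the replicate block changed no other call of the members. With RLE rescaling, adding the block brought tph-1 in neuronal under the threshold (1.54, adjusted p = 0.012 by limma). The cause of these changes was not tested. Pathway genes called higher in neuronal numbered 14 and ranged from 0 (edgeR) to 15 over the alternatives, and from 4 to 14 leaving out each library (5 and 4 without TRAP replicates 1 and 2, 4 without input replicate 2). In serotonin they numbered 0 higher and 0 lower, and up to 4 higher and 8 lower. In intestine lgc-50 was the 1 pathway gene called lower, and the count ranged from 0 to 4. All genes called higher were 0 to 2584 in serotonin over every setting run. In neuronal, where 2257 were called, they were 0 to 3282 over the alternatives and 414 to 3849 leaving out each library (414 without input replicate 2 and 3849 without input replicate 1). RLE rescaling moved the median change of all genes to -0.09 in serotonin (-0.44 without it) and to -0.09 in neuronal (0.81 without it). Depth limits tph-1 most in the neuronal inputs, with 2 and 8 reads, where the median gene had 44 and 70 reads. Values under 1 RPKM in both fractions are not listed, so absence from a table bounds a gene and does not show a level of 0.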
